A study of Mus musculus with 2 samples.

Results

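The neural splicing regulators and SR proteins are 48 genes, chosen by name for what their products do in RNA processing. No measured value was used as a rule for the choice, though earlier results of these data were known when it was made. They were found by gene identifier in GENCODE M21 among the 43346 measured genes, and all 48 were present, with 362 of the 103639 measured transcripts. The families are Rbfox (3 genes), Ptbp (3), Nova (2), Celf (6), Elavl (4), Mbnl (3), Khdrbs (3), Msi (2), Srsf (10), Tra2 (2) and Hnrnp (9), with Srrm4 alone. RNA came from the midbrain of E12.5 B6NCrl mouse embryos, healthy and of mixed sex, pooled from 120 embryos for replicate 1 and 88 for replicate 2. The samples form 1 group with no control, so the comparisons are among the genes, among their transcripts and between both pools. Replicate 1 held 28212923 and replicate 2 held 36082643 estimated counts on genes, of which the 48 genes took 1.77% and 1.71%.

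Splicing joins the exons of a new transcript, and regulators that bind near an exon decide whether it is kept or skipped. SR proteins bind exons and mostly favour their inclusion, while many hnRNP proteins favour skipping. In the nervous system, Rbfox, Nova, Ptbp2, neuronal Elavl proteins and Srrm4 direct sets of neural exons, and Ptbp1 holds many of these exons out of the mature RNA of progenitors. Many SR and hnRNP genes limit their own output through a poison exon, an exon with a stop codon in its reading frame. A transcript that carries one is recognised by nonsense-mediated decay (NMD), a pathway that destroys RNAs whose stop codon lies well upstream of an exon junction. A transcript with a retained intron keeps sequence that is otherwise removed and makes no full-length protein.

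Poison exons of the SR and Tra2 genes could be read directly from the annotated transcripts. The stretches below run from the first base of the exon to its stop codon, which is in capitals, for the NMD transcripts that entered the exon from an upstream start codon and that had no overlap between this exon and the gene's most abundant coding transcript. They are shown because these exons separate the decay form of each gene from its coding form. Sequences are from GENCODE M21 on mm10, 5′ to 3′ on the transcript's strand.
Srsf6-201 exon 3: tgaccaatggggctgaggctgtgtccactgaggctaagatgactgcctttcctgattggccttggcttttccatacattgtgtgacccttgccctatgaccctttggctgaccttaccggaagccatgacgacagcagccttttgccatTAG
Srsf3-201 exon 4: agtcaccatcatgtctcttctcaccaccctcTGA
Tra2b-206 exon 2: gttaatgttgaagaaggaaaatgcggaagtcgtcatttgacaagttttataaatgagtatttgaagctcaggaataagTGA
Srsf11-206 exon 4: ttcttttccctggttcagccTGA
They lie at chr2:162932815-162932966 (plus strand), chr17:29039454-29039487 (plus strand), chr16:22259181-22259261 (minus strand) and chr3:158024209-158024231 (minus strand). The whole exons are longer, at 268 bases in Srsf6, 456 in Srsf3, 276 in Tra2b and 109 in Srsf11. In each of these transcripts the stop codon is followed by further exons, and the distance from the stop to the last exon junction is 534 bases in Srsf6-201, 548 in Srsf3-201, 1015 in Tra2b-206 and 456 in Srsf11-206. The Tra2b exon holds 28 copies of the letters GAA on the transcript strand, and Tra2 proteins are known to bind GAA-rich exons. Among 3594 internal exons of protein-coding transcripts within 20 bases of its length, the median is 5 copies and 0.0556% hold at least 28. The Srsf6 exon holds 2 copies and the Srsf3 exon 3, fewer than the medians of 5 and 9 in internal exons of their lengths. Part of the Srsf6 exon also lies in an exon of another Srsf6 transcript typed as protein-coding. A match of letters is a description of the sequence and not a binding site. GENCODE M21 gives the deposited Srsf3-201 and Tra2b-206 other lengths (1919 against 2594 bases and 1590 against 1687), so for these transcripts the exons are those of the later model.

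The labelled tissue carried its markers. Otx2, a transcription factor of forebrain and midbrain, was at 147 and 142 TPM, and all 6 listed midbrain genes reached 1 TPM in both libraries. TPM is the deposited transcript abundance, divided by transcript length and scaled to a fixed sum per library. Markers of neurons (6 of 6), radial glia (6 of 6) and dividing cells (4 of 4) were also above 1 TPM in both. So were the red cell (3 of 3), mesenchyme (3 of 3), endothelium (3 of 3) and macrophage (3 of 3) genes, while 3 of 5 astrocyte and oligodendrocyte genes and 2 of 3 skeletal muscle genes did. The mature astrocyte genes Gfap and Aqp4 and the muscle regulator Myod1 were under 1 TPM. In such bulk tissue, fewer cells of a type and less RNA per cell cannot be told apart.

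All 48 genes were detected at 1 TPM or more in both libraries, and 47 at 5 TPM or more. Their median mean level was 151.9 TPM, against 18.4 TPM for the median of the 14895 genes detected. A mean of at least 100 TPM was reached by 29 genes, and 27 stood above 90% of detected genes. Mbnl3, the most weakly expressed Muscleblind gene, was lowest at 2.67 and 2.56 TPM, above 12.9% of detected genes. Hnrnpk, a binder of C-rich RNA, was highest at 1911 and 1872 TPM. Values here and below are for replicate 1 and then replicate 2 unless a mean is named.

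**Figure D1:**
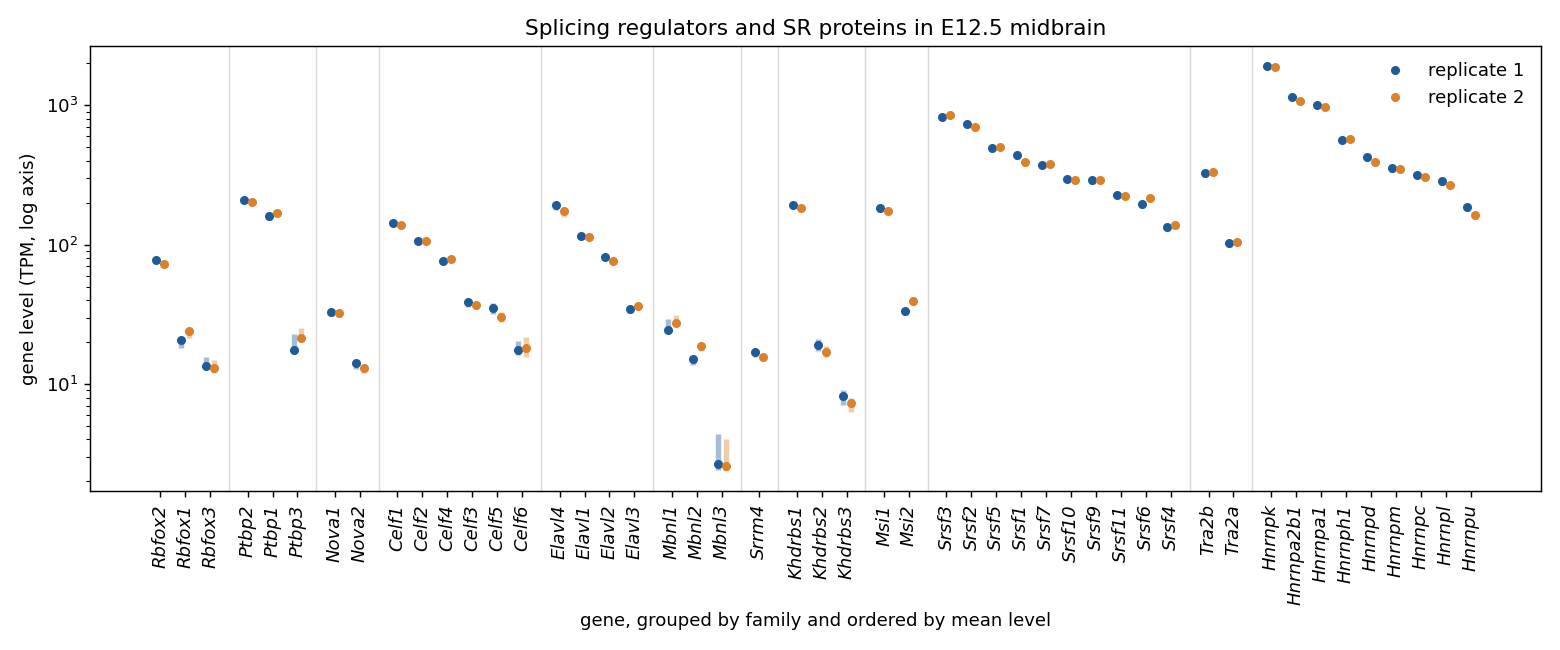
Gene level in TPM (log axis) of the 48 genes in replicate 1 and replicate 2, grouped by family and ordered by mean within it; points are deposited TPM values and bars the deposited TPM intervals. Hnrnp and Srsf genes fill the upper range up to 1911 TPM for Hnrnpk, and Mbnl3 stands lowest at 2.67 and 2.56 TPM.

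The Rbfox proteins activate or repress neural and muscle exons from the flanking introns. Rbfox2, the broadly expressed member, was at 78.2 and 73.1 TPM. Rbfox1 was at 20.6 and 24.0 TPM, and Rbfox3, the NeuN antigen of maturing neurons, was at 13.6 and 13.1 TPM. By TPM the order was Rbfox2, Rbfox1, Rbfox3 in both libraries, with TPM intervals that did not overlap. By counts, which ignore length, Rbfox1 had 562 and 840 and Rbfox3 had 648 and 707, so Rbfox1 was the lower of these in replicate 1. Rbfox2 supplied 69.6% and 66.4% of the family's TPM.

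Both polypyrimidine tract proteins that hand over during neuronal differentiation were abundant. Ptbp2, the neuronal form, was at 209 and 201 TPM. Ptbp1, the progenitor form, which blocks an exon of Ptbp2 and thereby sends its RNA to decay, was at 159.8 and 167.5 TPM. Ptbp2 stood 0.33 ± 0.08 above Ptbp1 on a log2 scale (SD, n = 2), and both libraries showed it higher. Ptbp3 was at 17.6 and 21.4 TPM, 8.39-fold below Ptbp1. Of Ptbp2 the deposited files measure 1 transcript, and 5 NMD or retained-intron transcripts that M21 lists for it were not measured, so the decay form of Ptbp2 is not seen here.

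Nova1 and Nova2, neuron-specific regulators of synaptic transcripts, differed in level. Nova1 was at 32.9 and 32.1 TPM and Nova2 at 14.2 and 13.03 TPM, a log2 ratio of Nova1 over Nova2 of 1.25 ± 0.06 (SD, n = 2). For Nova2, 59.2% and 60.9% of the TPM fell on a transcript absent from M21, whose class is therefore unknown.

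The Celf proteins regulate splicing in the nucleus and translation or decay in the cytoplasm. Celf1 and Celf2, the broadly expressed pair, were at 143 and 138 TPM and at 105.9 and 106.4 TPM. The neural members were lower, with Celf4 at 76.9 and 79.3 TPM, Celf3 at 38.6 and 37.2 TPM, Celf5 at 35.2 and 30.2 TPM and Celf6 at 17.7 and 18.3 TPM. Every step of that order had separate TPM intervals in both libraries except Celf3 and Celf5, whose intervals overlapped in replicate 1.

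Among the Hu proteins, which bind AU-rich RNA and stabilise it, Elavl4 (HuD) was at 194 and 175 TPM and the ubiquitous Elavl1 (HuR) at 115 and 114 TPM. Elavl2 was at 81.2 and 76.0 TPM and Elavl3 at 34.4 and 36.5 TPM. By gene TPM, Elavl4 led Elavl1 by 0.69 ± 0.09 on a log2 scale (SD, n = 2). Counting protein-coding transcripts alone the order turned round, with a log2 ratio of Elavl4 over Elavl1 of -0.22 in replicate 1 and -0.39 in replicate 2. With CPM, library-scaled counts that ignore length, it was -0.89 and -1.09. Short transcripts typed as processed, with no annotated reading frame, held much of the gene. Elavl4-211 (869 bases) held 29.5% and 32.2% of the gene's TPM and Elavl4-210 (464 bases) held 19.3% and 18.1%, while the top coding form Elavl4-202 (4024 bases) held 28.8% and 27.9%.

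The Khdrbs and Msi families each had a dominant gene, and Mbnl1 and Mbnl2 lay closer together. Khdrbs1 (Sam68) was at 192 and 184 TPM, against 18.9 and 17.0 TPM for Khdrbs2 (SLM1) and 8.24 and 7.32 TPM for Khdrbs3 (SLM2), genes known for neurexin splicing in neurons. Khdrbs1 was 10.4-fold above Khdrbs2 and 23.9-fold above Khdrbs3, the widest gap among the 19 paralog pairs compared. Msi1, a marker of neural progenitors, was at 182 and 174 TPM, and Msi2 was at 33.3 and 39.4 TPM. Mbnl1, whose protein promotes adult splicing patterns, was at 24.3 and 27.2 TPM, with Mbnl2 at 15.02 and 18.7 TPM and Mbnl3 9.52-fold below Mbnl1. Srrm4 (nSR100), the activator of neuronal microexons, was at 16.9 and 15.5 TPM.

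In all 19 pairs the paralog and the gene it was set against had TPM intervals that did not overlap in either library. The paralog was lower in 16 pairs and higher in 3, which were Ptbp2 over Ptbp1, Nova1 over Nova2 and Elavl4 over Elavl1. Elavl4 over Elavl1 was the only pair whose mean ratio changed sign under protein-coding transcripts alone or CPM. For Mbnl2 over Mbnl1, coding transcripts gave -0.23 in replicate 1 and 0.01 in replicate 2, against -0.69 and -0.54 by gene TPM.

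**Figure D2:**
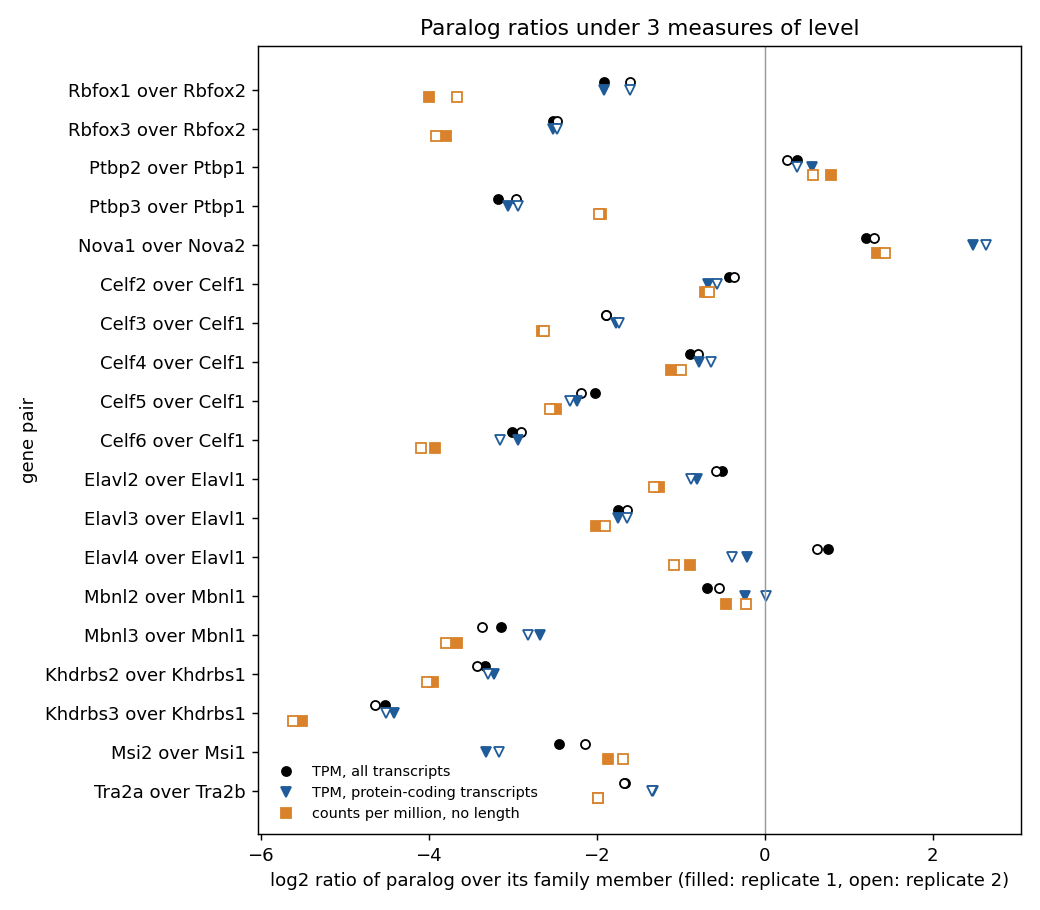
Log2 ratio of each paralog over its family member for 19 pairs, by TPM of all transcripts, TPM of protein-coding transcripts and CPM, which is library-scaled counts without length; filled marks are replicate 1 and open marks replicate 2. Elavl4 over Elavl1 lies right of 0 by TPM (0.75 and 0.62) and left of it by the other measures, and Khdrbs3 over Khdrbs1 lies farthest left by TPM.

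The 10 Srsf genes, core SR proteins and their relatives, summed to 4017 and 3995 TPM. Srsf3, the smallest SR protein, was highest at 828 and 859 TPM, followed by Srsf2 (SC35) at 737 and 701 TPM. Srsf5 was at 495 and 503 TPM and Srsf1 (SF2/ASF), a general activator of splice sites, at 438 and 395 TPM. Srsf7 was at 375 and 381 TPM, Srsf10 at 298 and 289.7 TPM, Srsf9 at 290.0 and 289 TPM, Srsf11 at 229 and 222 TPM and Srsf6 at 195 and 218 TPM. Lowest was Srsf4 at 133 and 138 TPM. TPM intervals overlapped in at least 1 library for Srsf1 and Srsf7, Srsf10 and Srsf9, and Srsf11 and Srsf6, and were separate for the other steps. Tra2b, a partner of SR proteins at exonic enhancers, was at 326 and 334 TPM and Tra2a at 103 and 104.7 TPM.

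The 9 Hnrnp genes summed to 6202 and 5971 TPM, and Hnrnpk supplied 30.8% and 31.4% of this. After Hnrnpk came Hnrnpa2b1 at 1144 and 1071 TPM and Hnrnpa1, a repressor of exons through silencer elements, at 1013 and 969 TPM. Hnrnph1, a binder of G runs, was at 566 and 577 TPM. Hnrnpd followed at 427 and 394 TPM, Hnrnpm at 352 and 351 TPM, Hnrnpc, a tetramer-forming coat protein of nascent RNA, at 316 and 307 TPM and Hnrnpl at 287 and 266 TPM. Every step down this family had separate intervals in both libraries. Hnrnpu, a nuclear scaffold protein, was lowest at 186 and 162 TPM under its own identifier. The files hold 4 more transcripts that M21 assigns to Hnrnpu under other identifiers, among them the NMD transcript Hnrnpu-206 at 444 and 396 TPM. With these 4 added, Hnrnpu stood at 790.2 and 736 TPM, so its place in the family depends on the annotation. Over the 11 families with at least 2 genes, 32 of 36 neighbouring pairs had separate intervals in both libraries.

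NMD and retained-intron transcripts took a sizeable part of the TPM of several regulators. Of the 48 genes, 25 (52.1%) had at least 1 measured transcript of these classes, against 44.99% of 13215 protein-coding genes at a mean of 1 TPM or more. The median over these 25 of the mean share was 14.3%. The median was 14.6% in replicate 1 and 18.04% in replicate 2, against 12.4% and 12.8% over all 6030 genes with such a transcript. A mean share of at least 10% was found in 16 of the 25 (64%, against 56.2% of all such genes), and at least 30% in 7 (28%, against 25.4%), shares not far from those of all genes. Summed over the 25 genes, the classes held 29.4% and 29.5% of TPM.

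Which family had the larger shares depended on the annotation of 1 gene. Under the deposited identifiers, the 7 Srsf genes with such a transcript had a median of 34.0% and 32.7%, the 5 Hnrnp genes 12.6% and 13.8%, and the 12 genes of the other families outside Tra2 6.87% and 11.3%. The Hnrnp median is the value of Hnrnpu. With the 4 Hnrnpu transcripts that M21 adds, the Hnrnp median was 36.5% and 36.2%, above that of the Srsf genes. These medians are descriptions, and the difference between families was not tested. Shares also depend on the measure: by expected counts, in which a long transcript weighs more, the median over the 25 genes was 7.61%.

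**Figure D3:**
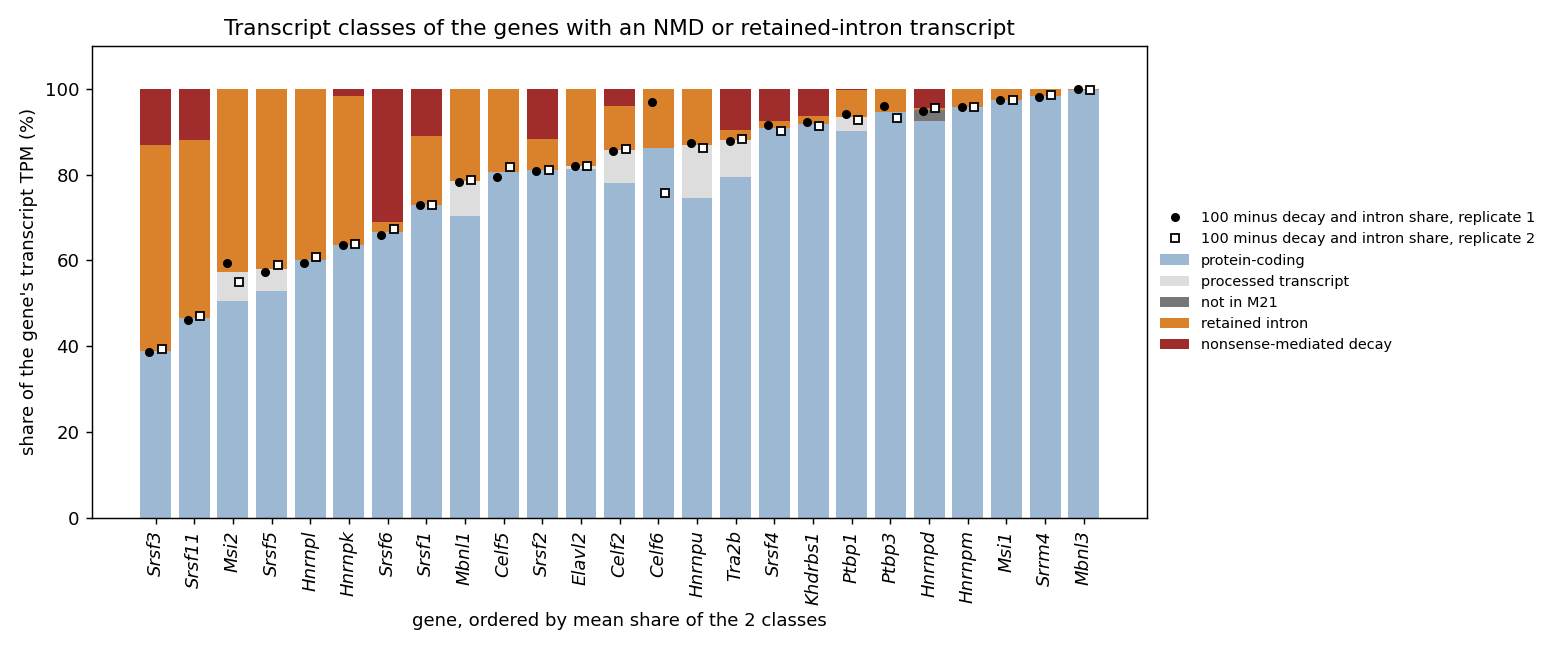
Share of each gene's transcript TPM (mean of both libraries) in protein-coding, processed, unmatched, retained-intron and NMD transcripts for the 25 genes with an NMD or retained-intron transcript; points give 100 minus the share of these classes in replicate 1 and replicate 2. Srsf3 stands at the left with 61.5% and 60.6% in the classes, and the points of both libraries lie apart for Celf6.

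Under the deposited identifiers, Srsf3 had the largest share, 61.5% and 60.6%. Its retained-intron transcript Srsf3-205, deposited as 910 bases, held 41.5% and 40.6% of TPM and was the gene's most abundant transcript in both libraries, though it took only 18.8% and 18.2% of the gene's counts. The NMD transcript Srsf3-201, with the poison exon printed above, held 13.2% in each library, and the retained-intron form Srsf3-204 held 6.82% and 6.86%. In the M21 models Srsf3-204 also holds the whole exon, so transcripts with it took 20.0% and 20.1% of TPM, and the later model of Srsf3-205 holds 392 of its 456 bases. Protein-coding Srsf3 RNA was thus at 319 and 338 TPM. By coding TPM, Srsf2 came first at 596 and 569 TPM and Srsf7 next at 375 and 381 TPM, and Srsf3 lay near Srsf1, which was at 319 and 288 TPM. Srsf7 had only 1 measured transcript, a coding one, so its coding TPM is its whole gene TPM. Its place in this order therefore depends on the annotation.

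**Figure D4:**
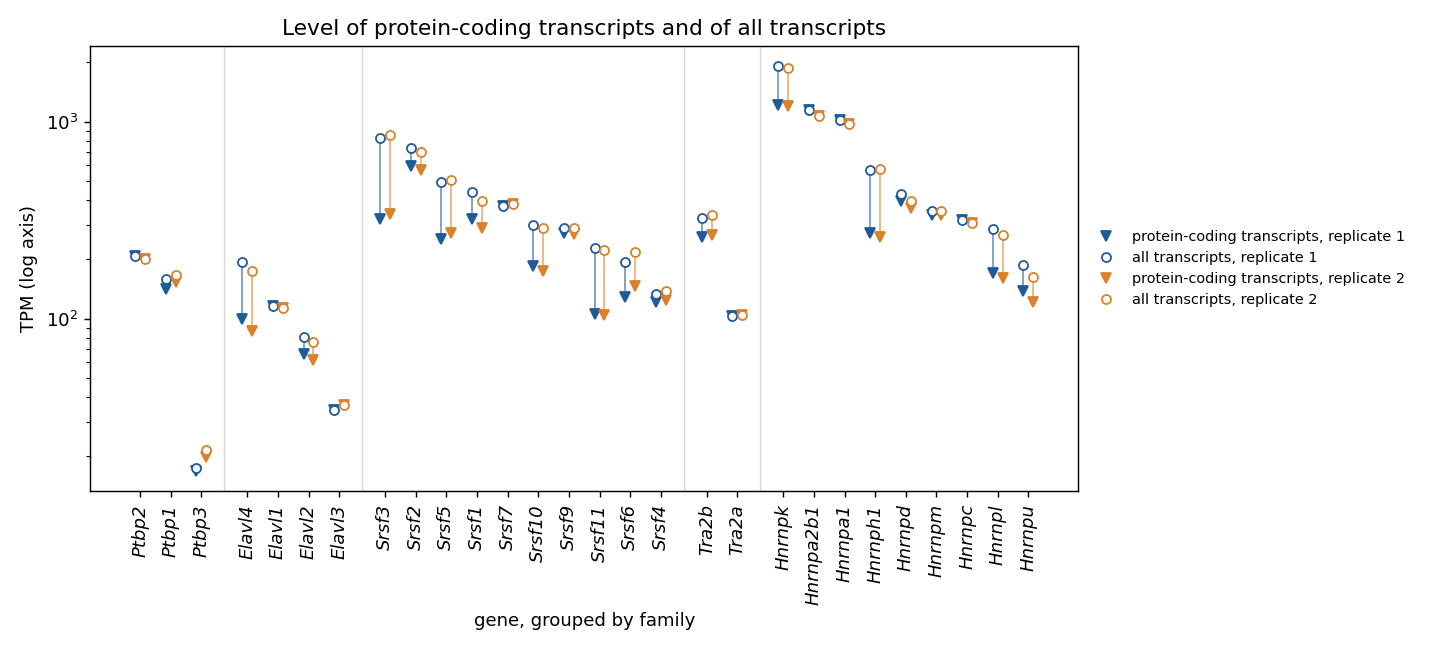
TPM (log axis) of all transcripts (open circles) and of protein-coding transcripts (triangles) for Ptbp, Elavl, Srsf, Tra2 and Hnrnp genes in replicate 1 and replicate 2. The vertical gap is long for Srsf3 (319 and 338 coding TPM of 828 and 859), Srsf11 and Hnrnph1 and short for Srsf2.

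Other SR genes followed with different forms. Srsf5 had 42.7% and 41.2% in the classes, nearly all in Srsf5-212, which keeps intron 5 of the top coding transcript Srsf5-201 (1229 bases, chr12:80947866-80949094) and held 41.5% and 40.1% of TPM. By counts Srsf5-212 took more, 57.5% and 55.7%. Srsf11 had 53.9% and 53.0%, spread over several transcripts, of which the retained-intron forms Srsf11-208 (17.1% and 18.3%) and Srsf11-203 (14.5% and 12.6%) were the largest. The NMD transcript Srsf11-206, whose poison exon is printed above, held 7.82% and 7.98%. Srsf11-203 and the minor Srsf11-210 hold the same exon, and the 3 together took 22.5% and 20.98% of TPM.

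Srsf6 was the SR gene whose single NMD transcript held the largest share of its gene's TPM. By level, Srsf3-201 (109 and 114 TPM) and Srsf2-204 (84.2 and 78.8 TPM) stood above Srsf6-201 (61.3 and 66.2 TPM). Srsf6-201, with the 268-base exon printed above, held 31.5% and 30.4% of TPM, and with the retained-intron form Srsf6-204, which also holds the whole exon, the gene's total in the classes was 34.0% and 32.7%. Srsf1 had 27.1% and 27.2%, divided between Srsf1-203 (13.1% and 12.1%) and the NMD form Srsf1-204 (10.4% and 11.3%). Srsf2 had 19.1% and 18.9%, with the NMD form Srsf2-204 at 11.4% and 11.2%. By counts these transcripts took less. Srsf6-201 took 17.5% and 16.8% of its gene's counts, Srsf1-203 3.47% and 3.20%, Srsf1-204 3.34% and 3.63% and Srsf2-204 3.62% and 3.56%. All bases of Srsf1-203, Srsf1-204 and Srsf2-204 lie within exons of the top coding transcript of their gene, so they differ from it in which bases are joined. Reads inside these exons do not distinguish them from the coding form.

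Srsf4 had 8.45% and 9.87% and Tra2b 12.2% and 11.7%. The NMD transcript Tra2b-206, with the GAA-rich exon printed above, held 9.55% and 9.44%, just under the 10% at which transcripts were named, while the last 2 at or above it were Srsf2-204 and Srsf1-204. The processed transcript Tra2b-202 and the retained-intron form Tra2b-203 hold the same exon in the M21 models, and the 3 together took 19.4% and 20.1% of TPM. Srsf7 and Tra2a each had 1 measured transcript, the coding one, while M21 lists 4 and 3 transcripts of these classes that the files do not measure. Their share of 0 is thus a property of the annotation used. Over the 48 genes, M21 lists 168 transcripts of these classes (49 NMD and 119 retained-intron), of which 60 were not measured, and 14 genes with such M21 transcripts had none measured.

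In the Hnrnp family the share was high for Hnrnpl and Hnrnpk. Hnrnpl, a binder of CA-rich RNA, had 40.5% and 39.3%, with the retained-intron form Hnrnpl-210 (672 bases, which keeps the 118-base intron 11) at 25.2% and 21.03%. Hnrnpk had 36.5% and 36.2%, with Hnrnpk-217, which keeps the 78-base intron 13, at 21.3% and 22.1%. By counts Hnrnpl-210 took 9.14% and 7.42%, and Hnrnpk-217 took 9.57% and 9.79%. Hnrnpd and Hnrnpm had under 6% in both libraries. Hnrnpu had 12.6% and 13.8% under its own identifier and 75.9% and 77.2% with the 4 transcripts that M21 assigns to it. Hnrnph1 had no measured transcript of these classes, and 53.3% of its TPM on average fell on transcripts typed as processed. For Srsf10, also without such a transcript, it was 39.0%.

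Outside those families, Msi2 led with 40.5% and 45.1%, from Msi2-205 (22.3% and 23.2%) and Msi2-207 (18.3% and 21.97%). Mbnl1 had 21.7% and 21.3%, Celf5 20.6% and 18.2% and Elavl2 18.1% and 18.04%. Their named transcripts were all of the retained-intron class: Mbnl1-225 (13.7% and 12.9%), Celf5-207 (15.3% and 12.6%) and Elavl2-215 (15.6% and 16.5%). Celf5-207 rested on only 48.2 and 43.2 expected counts. Ptbp1 had 5.94% and 7.27%, and the NMD form Ptbp1-201 held 0.29% and 0.37%. Celf2 had 14.6% and 14.1%, while Khdrbs1, Ptbp3, Msi1 and Srrm4 were under 9% in both. Mbnl3 had 0% and 0.39%.

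Under the deposited identifiers, 17 NMD or retained-intron transcripts held at least 10% of their gene's TPM in both libraries, 13 of them retained-intron and 4 NMD. The NMD transcript Hnrnpu-206, at 444 and 396 TPM under another identifier, is not among them. Only 3 of the 13 retained-intron transcripts (Srsf5-212, Hnrnpl-210 and Hnrnpk-217) contain a whole intron of the gene's top coding transcript in the M21 models. The labels call the RNA total RNA longer than 200 nt and link the manual of a kit that primes from poly(A) tails, and unspliced precursor RNA and stable intron-retaining RNA cannot be told apart in these values.

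Class shares were close in both pools for most of the 25 genes. The share differed by under 2 percentage points for 21 of them, a count that was not made over all genes. In a two-sided Fisher's exact test of class counts against other counts, adjusted over 5990 genes, 1 of 25 was called at an adjusted p under 0.05 and at least 10 points, against 5.38% of all genes tested. This was Celf6, with 3.17% in replicate 1 and 24.4% in replicate 2, a difference of -21.2 points (Fisher's exact test, adjusted p = 3.8e-07). By counts the Celf6 classes were small, at 0.66% and 5.55% of 745 and 796 counts. Without the limit of 10 points, 4 of 25 had an adjusted p under 0.05 by the same test (Celf6, Msi2, Srsf5 and Hnrnpd), against 21.7% of all genes tested. The test covers counting error only and not how reads were divided among transcripts.

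The most abundant transcript was the same in both libraries for 37 of the 40 genes with at least 2 measured transcripts (92.5%, against 90.4% of 10178 such genes). The exceptions were Ptbp1, Mbnl2 and Rbfox3. For Ptbp1, Ptbp1-202 held 36.1% and 30.2% and Ptbp1-216 held 25.9% and 32.4%. Mbnl2-202 held 53.9% and 48.6% of Mbnl2, and Mbnl2-201 held 46.1% and 51.4%. Rbfox3-205 held 36.9% and 22.2% of Rbfox3, and Rbfox3-203 held 24.2% and 28.0%. Over all 48 genes, the top transcript in both libraries was protein-coding for 41, retained-intron for Srsf3 and Srsf5, processed for Elavl4 and unmatched for Nova2. The 41 include 8 genes with 1 measured transcript, a coding one, for which no other result was possible.

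All 48 regulators lay within 1.5-fold between the pools. A two-sided exact binomial test on counts, adjusted over 18939 genes, was called at an adjusted p under 0.05 and 1.5-fold. It called 0 of the 48 genes different, against 3.55% of 15199 genes at a mean of 1 TPM or more. With only 48 genes, 0 is near that share and does not set them apart from genes at large. An edgeR exact negative binomial test with the same limits also called 0 of 48, against 1.32% of genes. Its dispersion was estimated from these same 2 libraries taken as 1 group. The difference between the pools thus entered the spread it was tested against, so this 0 cannot show that the pools were close. At an unadjusted p under 0.05 the edgeR test gave 0 of 48, and its share over all genes was not counted. The binomial test gave 36 of 48 at that limit, against 36.3% of genes. The binomial test covers counting error only. Both tests compare these libraries, not conditions.

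Small differences were resolved at this depth. Without the 1.5-fold limit, 31 of the 48 genes had an adjusted p under 0.05 by the binomial test, 26 higher in replicate 1 and 5 higher in replicate 2. This was 64.6% of the 48, against 26.4% of all genes. Among genes at a mean of 1000 counts or more, where counting error is small, it was 28 of 42, against 35.1% of 7181 genes. Counts above that limit were not matched, and the test resolves smaller differences in genes with more counts. The SD of the log2 ratio between libraries was 0.116 over the 48 genes, against 0.141 over those 7181. The log2 ratio of replicate 1 over replicate 2 was above 0 for 37 genes and below 0 for 11, with a median of 0.08, against 0.00 over all genes. It ran from -0.29 for Mbnl2 to 0.27 for Celf6.

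Genes higher in replicate 1 included Hnrnpu (ratio 1.17, 95% exact interval 1.15 to 1.19), Elavl4 (1.19, 1.15 to 1.23) and Srsf1 (1.13, 1.11 to 1.15). Mbnl2 (0.820, 0.761 to 0.882), Rbfox1, Ptbp1, Srsf6 and Srsf3 were the 5 genes higher in replicate 2 by the binomial test. Ptbp1 had a ratio of 0.913 (0.885 to 0.942) and Ptbp2 one of 1.06 (1.03 to 1.09), so this pair lay on opposite sides of 1. The deposited TPM intervals, which also reflect the division of reads, did not overlap between libraries for 12 genes, 8 higher in replicate 1 and 4 in replicate 2 (25% of the 48, against 16.1% of 15199 genes). Markers of other cell types moved beside these ratios. The 6 neuron markers summed to 2087 and 1981 TPM, with a median log2 ratio of 0.12. The 3 mesenchyme markers summed to 830.3 and 1187 TPM (median -0.47), and the 3 red cell markers to 8673 and 10016 TPM (median -0.24). The 6 radial glia markers summed to 2784 and 2749 TPM (median 0.15), the 6 midbrain markers to 177 and 179.9 TPM (median -0.37) and the 3 macrophage markers to 50.5 and 63.8 TPM (median -0.35). The median was -0.19 for endothelium, 0.02 for dividing cells, 0.06 for astrocytes and oligodendrocytes and -0.06 for skeletal muscle. Of the marker genes, Pax6, at 60.0 and 17.7 TPM, and Olig1, at 4.10 and 1.95 TPM, were called higher in replicate 1 by the binomial test. The part of these markers in the ratios was not tested.

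**Figure D5:**
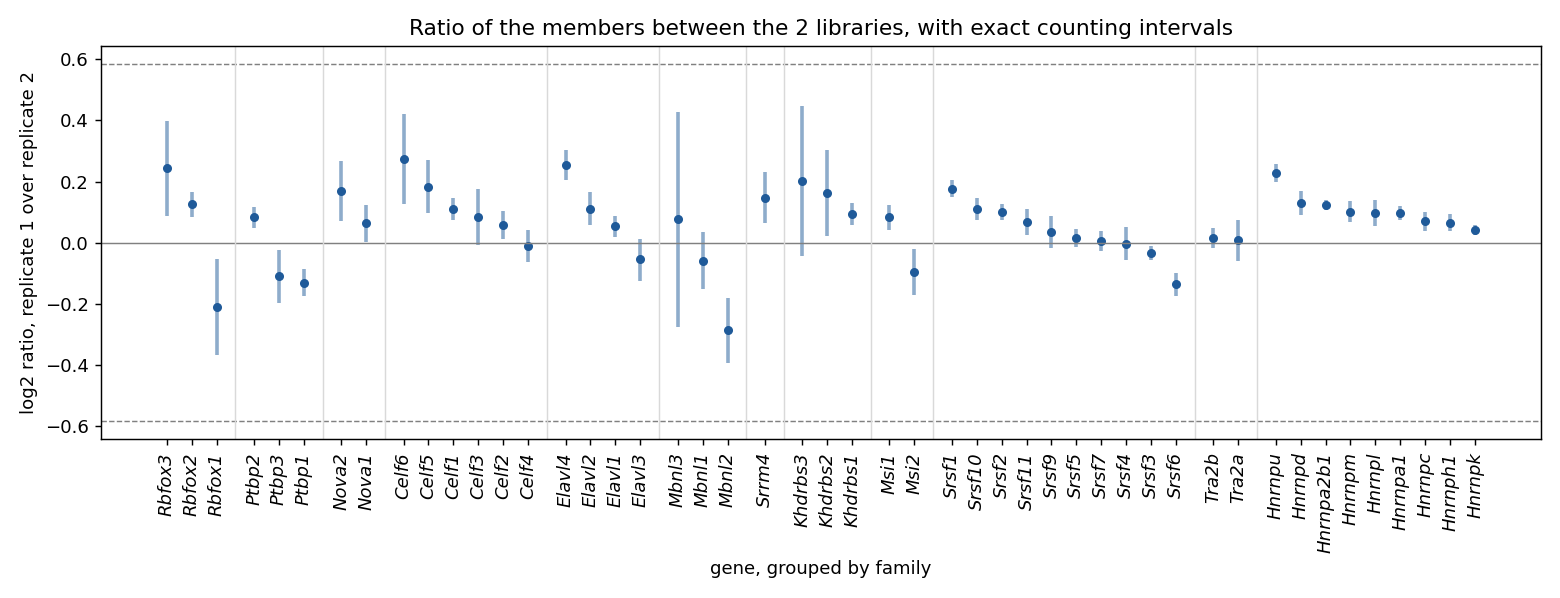
Log2 ratio of replicate 1 over replicate 2 for the 48 genes, grouped by family, with 95% exact counting intervals; dashed lines mark 1.5-fold. All points lie inside the dashed lines, from -0.29 for Mbnl2 to 0.27 for Celf6, and 37 lie above 0.

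The machinery around these regulators was also present. Of 32 other hnRNP and RNA-binding genes, 31 reached 1 TPM in both libraries, led by Ewsr1 at 719 and 737 TPM, Hnrnpab and Rbm39. The exception was the epithelial regulator Esrp2 at 1.05 and 0.69 TPM. Of 15 SR kinases and SR-related genes, 14 reached it, led by Srrm2, a large protein of nuclear speckles, at 501 and 523 TPM. All 16 spliceosome core genes did, led by Snrpb at 440.4 and 495 TPM, and all 16 NMD and exon junction genes, led by Eif4a3 at 263 and 282 TPM. By the binomial test at 1.5-fold, 0 of the 79 genes of these 4 lists were called between the libraries, against 3.55% of all genes. At an unadjusted p under 0.05 it gave 39 (49.4%, against 36.3% of all genes) and at an adjusted p under 0.05 it gave 29 (36.7%, against 26.4%). The edgeR negative binomial test gave 0 at an unadjusted p under 0.05, and its share over all genes was not counted. Its dispersion came from these same 2 libraries, so this 0 cannot show that they were close.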

How the data were processed

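Both libraries were analysed from gene and transcript tables. The expected counts that the authors deposited are estimates and hold fractions for some genes, and the deposited TPM values and posterior mean TPM values were normalised by the authors to effective length and library. Deposited lower and upper bounds of TPM, per the file headers, carry no stated level. They can miss the deposited TPM and did so for 20 of the 48 genes. The annotation was GENCODE M4 on mm10, per the notes beside the files, and neither aligner nor quantifier is named in the sources used here. Names, transcript types and exons came from GENCODE M21, in which 42462 of 43346 genes matched. Transcripts of the 48 genes had the M21 length in 332 of 359 cases.

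For tests, expected counts were rounded and scaled by TMM (edgeR 4.0.16, R 4.3.3). Genes with at least 10 counts summed entered a two-sided exact binomial test (scipy 1.17.1) with Benjamini-Hochberg adjustment, called at an adjusted p under 0.05, 1.5-fold and a mean of 1 TPM. Log2 ratios between libraries had 0.5 counts added in each library and paralog ratios had 0.1 TPM added. Intervals cover counting error only, and 17 of the 48 genes had an expected count that was not whole within 0.005 in at least 1 library. Such fractions arise where reads are divided among genes, which was not checked on reads. Whether the counting used strand was not stated in these sources. The binomial and Fisher tests were tried on simulated counts with planted changes and counting error only. Spread between pools and the division of reads among transcripts were not simulated. The libraries are separate pools, and p-values measure the difference between these pools only.

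The members and lists were chosen with earlier results of these data known. All 48 genes could be named, with the 3 most abundant genes of each other list and those called or under 1 TPM. Transcripts were named where they were a gene's top transcript or an NMD or retained-intron transcript with at least 10% of its TPM in both libraries. Others, such as Tra2b-206, Srsf11-206 and Esrp2, were named after their values were seen. Alternatives were other size factors, thresholds, pseudocounts, posterior mean TPM, expected counts, protein-coding transcripts only and leaving out each library. No protein sequences were used here.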

Additional observations from a re-analysis of the deposited data

How the results depend on the processing

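The presence of all 48 genes, the 0 genes called between libraries at 1.5-fold and the most abundant transcripts held their counts within 1.5 times under every alternative run, except where given here. Dropping the 1.5-fold limit raised the genes called between libraries to 31. Requiring neighbours in a family to differ by 1.5-fold in both libraries left 16 of 36 pairs. The median NMD and retained-intron share of 14.3% became 7.61% by expected counts, 17.8% by posterior mean TPM, 0.0288% for NMD transcripts only and 10.4% for retained introns only, and ran from 14.6% to 18.04% when a library was left out. Expected counts lowered the share of 23 of 25 genes and posterior mean TPM raised it for 18. Without the limit of 10 points, 4 genes differed in share between libraries. The ratio of Elavl4 over Elavl1 reversed to -0.99 with CPM and to -0.30 with protein-coding transcripts only, the second chosen after seeing the data. The other 18 paralog ratios kept their sign in the mean over the libraries under both. The cause of none of these changes was tested. Leaving out a library was not possible for comparisons between the libraries.

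With 2 libraries of 1 group, spread is known only from 2 pools. Precision was lowest for Mbnl3, with 125 and 153 counts. Transcript shares rest on how reads were divided among overlapping models, and NMD or retained-intron forms outside the deposited annotation were not measured.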
